A study of Mus musculus with 8 samples.

Results

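The receptors for calcitonin gene-related peptide (CGRP) and adrenomedullin were followed in mouse aorta through 5 genes, Ramp1, Ramp2, Ramp3, Calcrl and Adm, of the 35896 genes in the count table. The genes were taken by symbol: the 3 receptor activity-modifying proteins (RAMPs), the receptor they pair with and 1 of its ligands. The family was chosen from the low Ramp1 levels of AngII and AngII+3W relative to CTRL, so the values of these 5 genes in those comparisons are given as a description and not as a test. Of the 5 genes, 4 passed the filter on low counts, and Ramp3 did not.

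Calcrl encodes a G protein-coupled receptor that reaches the cell surface and binds its ligands only together with a RAMP. With RAMP1 it forms the CGRP receptor, and with RAMP2 or RAMP3 it forms adrenomedullin receptors. Both peptides are vasodilators that raise cyclic AMP: CGRP is released from sensory nerves around vessels, while adrenomedullin, the product of Adm, is made in the vessel wall itself and is needed for the growth of blood and lymph vessels.

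RNA was sequenced from aortas of male C57BL6 mice, as 8 libraries from 16 mice. Each library is a pool of 2 animals, and one part of each aorta was used for RNA. AngII mice received angiotensin II at 2.8 mg/kg/d for 2 weeks from a minipump implanted at 11 weeks of age, and were sacrificed at the end of the infusion. AngII+2W and AngII+3W mice received the same infusion and were sacrificed 2 or 3 weeks after it ended. CTRL mice were untreated littermates of the same age, and their labels do not give the time of sacrifice. The comparisons ask which transcripts differ from CTRL at the end of the infusion and which still differ weeks later. Each group has 2 libraries, and groups of this size allow no exact permutation p below 0.33, so values are given for every library.

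Levels are given as CPM, for which the counts of a library are scaled to a total of 1000000 after correction with TMM, edgeR's method for differences in composition. Library totals were 18130441 to 21498200 counts, and a floor of 3 counts is 0.140 to 0.165 CPM. The make-up of the tissue was described with marker genes fixed for each cell type. Each of the 12 smooth muscle and 12 endothelial markers was above the floor in at least 1 library, and so was each of the 10 cardiac muscle markers. The same held for every other list, with adipocyte and skeletal muscle markers among them, so it does not identify the tissue. Smooth muscle markers summed to 2261 to 11881 CPM and adipocyte markers to 7252 to 12316 CPM. Some libraries stood apart: AngII+3W replicate 1 held 2666 CPM of skeletal muscle markers, against 5.85 to 74.8 CPM elsewhere, and 18.3% of its counts were mitochondrial, against 8.15% to 13.5%. Cardiac markers summed to 5290 CPM in CTRL replicate 1 and 6046 CPM in AngII+3W replicate 1, against 87.0 to 2345 CPM in the others. The same number in different groups marks different mice.

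Ramp1 (ENSMUSG00000034353) lies on the forward strand of chromosome 1, from 91179822 to 91225196 on GRCm38. The 250 bases before the annotated start of Ramp1 and of Adm are shown because these are the member with the widest spread between groups and the ligand gene, and both are taken from RefSeq on GRCm38.p6. Both lie on the forward strand, and capitals mark motif matches on either strand.
Ramp1, chr1:91179572-91179821: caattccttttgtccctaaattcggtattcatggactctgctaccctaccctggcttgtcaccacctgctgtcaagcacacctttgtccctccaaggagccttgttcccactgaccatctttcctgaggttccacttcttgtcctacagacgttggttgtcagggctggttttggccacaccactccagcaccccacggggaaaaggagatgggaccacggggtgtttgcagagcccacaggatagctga
Adm, chr7:110627407-110627656: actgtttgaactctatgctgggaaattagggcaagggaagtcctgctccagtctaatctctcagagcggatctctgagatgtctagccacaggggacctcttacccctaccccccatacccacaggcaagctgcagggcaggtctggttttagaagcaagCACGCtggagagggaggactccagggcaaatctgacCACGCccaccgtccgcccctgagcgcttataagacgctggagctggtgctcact

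The motifs searched were the CArG box of smooth muscle genes, the cyclic AMP response element TGACGTCA and the shorter TGACG it contains, and the hypoxia response cores ACGTG and GCGTG. None of these letters stood in the Ramp1 window, whose GC content was 54%. The Adm window held GCGTG on the reverse strand, printed as CACGC, starting 90 and 54 bases before the start. Such a match is common, since 28.2% of the 32851 promoters in the table hold GCGTG, while 16.6% hold ACGTG, 17.8% TGACG, 1.55% TGACGTCA and 1.47% a CArG box. The Calcrl window held none of these motifs, and the Ramp3 window held GCGTG at 219 and 65 bases before the start. Of the 5 genes, 4 were matched in the promoter table, and a Ramp2 window was not used here. A match is a description of letters, and binding was not measured.

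Among the RAMPs, Ramp1 carried the contrast between groups. The CTRL libraries held 21.4 and 20.2 CPM (440 and 429 counts), the AngII libraries 4.64 and 5.17 CPM (86 and 109 counts), those of AngII+2W 15.4 and 12.9 CPM (330 and 241 counts) and those of AngII+3W 5.70 and 6.29 CPM (106 and 117 counts). CTRL was highest, AngII+2W came next, AngII+3W followed and AngII was lowest, and no library of any group overlapped another group. Of the 17182 genes tested, 520 (3.03%) had no overlap between any of the 4 groups, and 75 (0.437%) had none in this order. The mean of CTRL was 20.8 ± 0.888 CPM, that of AngII 4.90 ± 0.369 CPM, that of AngII+2W 14.2 ± 1.74 CPM and that of AngII+3W 5.99 ± 0.416 CPM (SD, n = 2 libraries each). AngII thus stood at 23.6% of the CTRL mean, AngII+2W at 68.1% and AngII+3W at 28.8%.

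**Figure D1:**
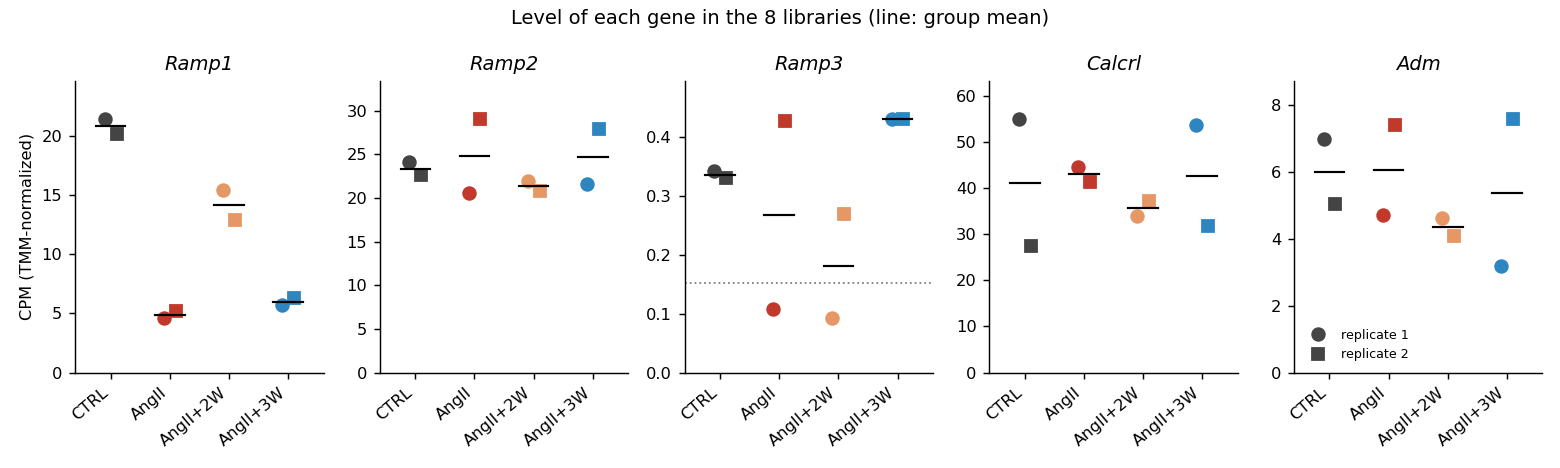
Level of Ramp1, Ramp2, Ramp3, Calcrl and Adm in CPM (vertical axes from 0, each gene on its own scale) in the 4 groups, with circles for replicate 1, squares for replicate 2, a line at each group mean and, for Ramp3, a dotted line at the floor of 3 counts. Ramp1 sits at 20.2 to 21.4 CPM in CTRL and 4.64 to 5.17 CPM in AngII with no overlap between any groups, while each of the other genes has some groups that overlap.

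Fold changes are edgeR's, on the log2 scale, from 1 model of all 8 libraries, and FDR is the Benjamini-Hochberg adjusted p over all genes tested. Against CTRL, the log2 fold change of Ramp1 was -2.08 (SE 0.168) in AngII and -1.80 (SE 0.166) in AngII+3W, which are the values that chose the family. Ramp1 was the only one of the 4 tested members among the 877 genes (5.10% of those tested) with an edgeR FDR below 0.05 in AngII, and the only one among the 49 (0.285%) in AngII+3W. The FDR was 0.00530 and 0.0357 in edgeR, and because these values chose the family it is a description and not a test. The call in AngII was lost when AngII replicate 2 was left out. That in AngII+3W was lost without CTRL replicate 1, AngII+3W replicate 1 or any 1 library of AngII or AngII+2W. In AngII+3W the FDR was also 0.0503 with library totals alone, 0.0525 with the replicate number as a block and 0.208 with only the 2 groups compared. The fold change itself stayed between -2.16 and -2.01 in AngII and between -1.92 and -1.73 in AngII+3W under every alternative run.

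Between the end of the infusion and 2 weeks later, Ramp1 was higher by a log2 fold change of 1.53 (SE 0.167, 95% interval 1.14 to 1.92, edgeR FDR 0.0296), a 2.89-fold difference of AngII+2W over AngII. It was the only member called in this comparison, in which 28 of all tested genes (0.163%) were called. The AngII libraries that helped to choose the family enter this comparison, so its p is not independent of that choice. The call was lost when any 1 library of CTRL, AngII or AngII+2W was left out, and calls over all genes fell in these fits too. The log2 fold change stayed between 1.39 and 1.65.

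AngII+2W did not pass the threshold against CTRL. Its log2 fold change was -0.55 (SE 0.158, 95% interval -0.92 to -0.19, unadjusted p 0.00853 and FDR 0.303, both edgeR). No gene passed an edgeR FDR of 0.05 in this comparison (0% of 17182), although 1838 had an unadjusted p below 0.05. DESeq2 called 373 genes here, with 4 of the pathway genes described below among them.

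Ramp1 was lower at 3 weeks than at 2 weeks after the infusion in both libraries. The log2 fold change of AngII+3W relative to AngII+2W was -1.24 (SE 0.165, 95% interval -1.62 to -0.86), which is a 2.36-fold lower level. It ranked 7 by p among all genes tested, with an edgeR FDR of 0.144. No gene passed in edgeR here either (0%), with 1518 at an unadjusted p below 0.05. DESeq2 gave Ramp1 an FDR of 0.000242 and edgeR's likelihood ratio test 0.000113, and without AngII+3W replicate 2 the quasi-likelihood FDR was 0.0232. The AngII+3W libraries also helped to choose the family, so these p-values are not independent of that choice. The groups are different mice, so the values are not a course within an animal.

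AngII+3W and AngII were not distinguished by Ramp1. The log2 fold change of AngII+3W relative to AngII was 0.29 (SE 0.169, 95% interval -0.11 to 0.68, edgeR FDR 0.413), and none of the 4 tested members was among the 276 genes (1.61%) called.

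**Figure D2:**
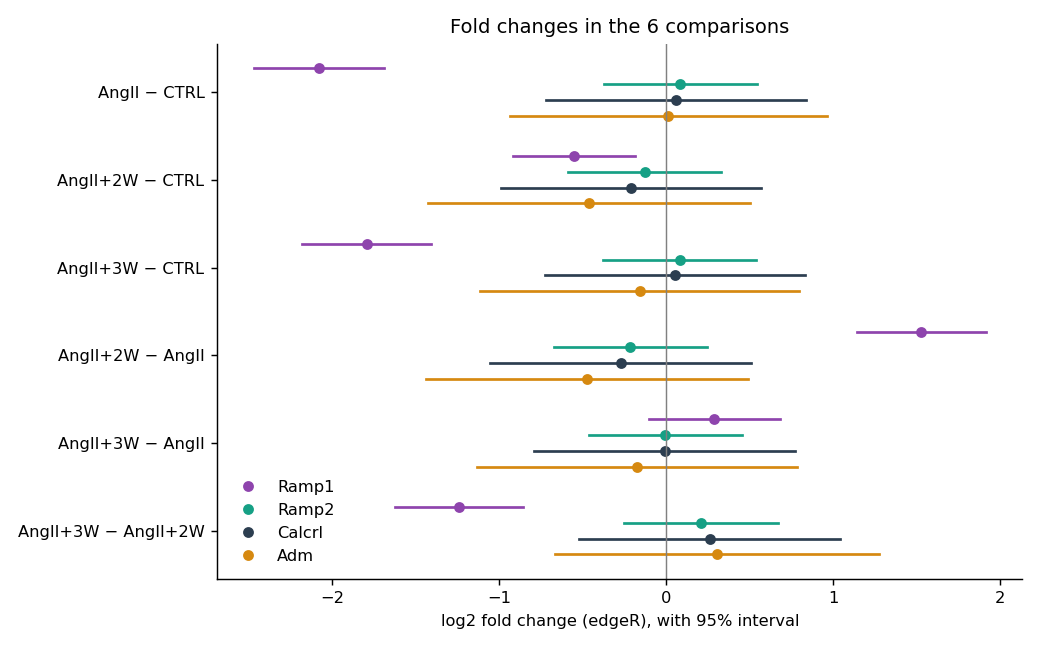
Log2 fold changes (horizontal axis, edgeR) of Ramp1, Ramp2, Calcrl and Adm in the 6 comparisons (rows), with 95% intervals as lines. The Ramp1 intervals leave 0 except for AngII+3W minus AngII, and all intervals of Ramp2, Calcrl and Adm include 0; CTRL and AngII libraries are shared between comparisons.

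Ramp2 (ENSMUSG00000001240, chromosome 11, 101246028 to 101259546, forward strand), whose protein turns CALCRL into an adrenomedullin receptor, was level across the groups. Its CTRL libraries held 24.1 and 22.6 CPM, those of AngII 20.5 and 29.0 CPM, those of AngII+2W 22.0 and 20.8 CPM and those of AngII+3W 21.6 and 27.9 CPM. The highest libraries were AngII replicate 2 and AngII+3W replicate 2, and every group overlapped another. Its log2 fold changes lay between -0.21 and 0.21 over the 6 comparisons. Against CTRL the 95% interval was -0.37 to 0.54 in AngII, -0.59 to 0.33 in AngII+2W and -0.38 to 0.54 in AngII+3W, so for AngII a fall by more than 0.37 on the log2 scale lies outside it. Part of Ramp2 overlaps Vps25 on the same strand, so its counts are uncertain where the transcripts share bases.

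Ramp3 (ENSMUSG00000041046, chromosome 11, 6658521 to 6677475, forward strand), the other RAMP of adrenomedullin receptors, was close to the limit of detection. Both CTRL libraries had 7 counts, those of AngII 2 and 9, those of AngII+2W 2 and 5, and both of AngII+3W 8. AngII replicate 1 and AngII+2W replicate 1 were below the floor of 3 counts, and the groups could not be separated at this depth. Fitted without the filter on low counts, its log2 fold changes ran from -0.89 to 1.24 with an edgeR FDR of at least 0.772 over 24427 genes. These counts are also uncertain because the pseudogene Gm11978 overlaps Ramp3 on the opposite strand with near-identical sequence.

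The make-up of the RAMP transcripts followed from these levels. Per length of all exons, Ramp1 made up 48.4% and 48.5% of the RAMP transcripts of the CTRL libraries, 19.6% and 15.8% of those of AngII, 43.1% and 39.8% after 2 weeks (AngII+2W) and 21.6% and 19.2% after 3 (AngII+3W). Ramp1 and Ramp2 were thus near equal in CTRL, and Ramp2 made up 74.8% to 81.3% in AngII and AngII+3W. As shares of counts, Ramp1 took 46.7% (Wilson 95% interval 43.5% to 49.9%) in CTRL replicate 1 and 18.4% (15.1% to 22.1%) in AngII replicate 1, where the intervals cover counting error only. The shares depend on the length used: per longest coding transcript, the mean share of Ramp1 was 30.8% (CTRL), 9.2% (AngII), 24.9% (AngII+2W) and 10.9% (AngII+3W), with the groups in the same order. Summed over the RAMPs, the level per kilobase of exon was 14.6 and 13.8 in CTRL and 7.83 and 10.8 in AngII (CPM per kilobase).

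**Figure D3:**
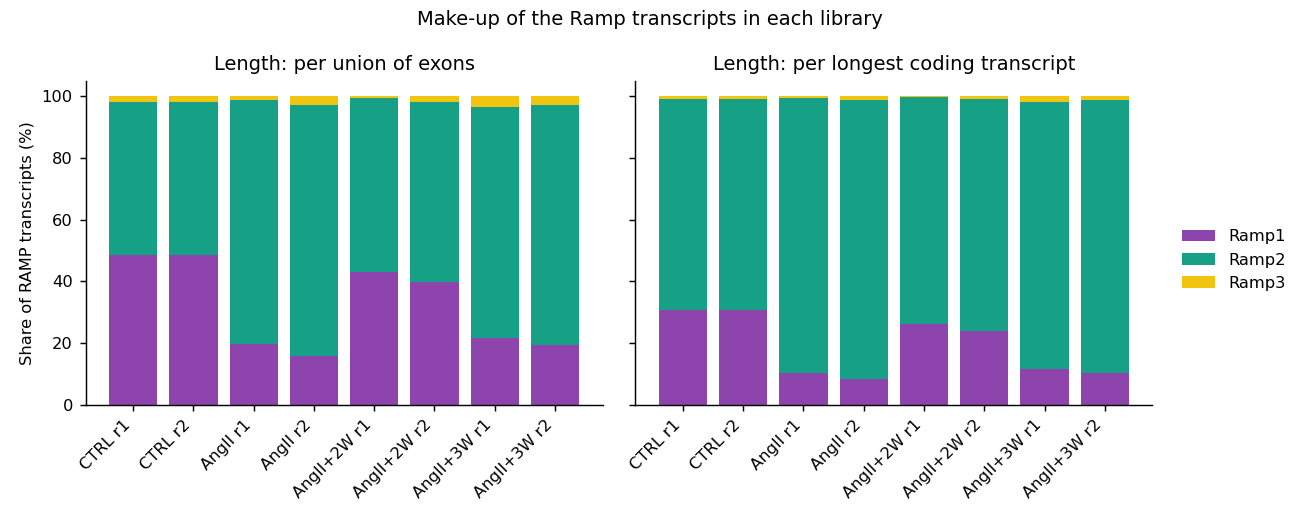
Share of Ramp1, Ramp2 and Ramp3 in the summed RAMP level (percent, stacked bars from 0) in each of the 8 libraries (r1 and r2 are the replicates), per kilobase of all exons on the left and of the longest coding transcript on the right. The Ramp1 part is near 48% on the left in CTRL and 15.8% to 21.6% in AngII and AngII+3W.

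Calcrl (ENSMUSG00000059588, chromosome 2, 84330626 to 84425411, reverse strand) encodes the receptor all 3 RAMPs pair with. It varied more within CTRL and within AngII+3W than between the group means. CTRL gave 55.0 and 27.4 CPM, AngII gave 44.7 and 41.3 CPM, AngII+2W gave 33.9 and 37.3 CPM, and AngII+3W gave 53.6 and 31.8 CPM. The 2 CTRL libraries enclose all other libraries. Replicates lay closer in AngII and AngII+2W (SD 2.39 CPM in each). The log2 fold change of AngII+2W relative to AngII was -0.27 (95% interval -1.05 to 0.51). Its log2 fold changes lay between -0.27 and 0.26, and the 95% interval in AngII against CTRL was -0.72 to 0.84. With CTRL replicate 1 left out, the estimate in AngII was 0.65 (edgeR FDR 0.310), and in AngII+2W it turned from -0.21 to 0.39 (FDR 0.680). The highest Calcrl levels were in CTRL replicate 1 and AngII+3W replicate 1, which also held the highest cardiac muscle marker sums. The other libraries did not follow this order. CTRL replicate 2 had the next highest cardiac sum (2345 CPM) and the lowest Calcrl level. AngII+2W replicate 2 had the lowest cardiac sum (87.0 CPM), with Calcrl at 37.3 CPM. The part of cardiac tissue in these levels was not tested.

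The ligand gene Adm (ENSMUSG00000030790, chromosome 7, 110627661 to 110629820, forward strand) was low and variable. CTRL gave 6.97 and 5.03 CPM, AngII gave 4.70 and 7.39 CPM, AngII+2W gave 4.62 and 4.08 CPM, and AngII+3W gave 3.17 and 7.58 CPM. The AngII+3W libraries were the lowest and the highest of all 8. The log2 fold changes lay between -0.48 and 0.30, with an edgeR FDR of at least 0.669 in every comparison. The 95% interval in AngII against CTRL was -0.94 to 0.96, so that a change of close to 2-fold in either direction lies within it. This interval is not adjusted for the number of genes, and an FDR below 0.05 would take a larger change. Adm and Ramp2 were highest in the same 3 libraries, CTRL replicate 1, AngII replicate 2 and AngII+3W replicate 2. The annotated gene Gm28863 runs antisense to Adm, and whether counting used the strand is not given in the sources used here.

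Between genes, levels were compared only per kilobase. In CTRL, in CPM per kilobase of all exons, Calcrl stood at 8.44 ± 3.99, Ramp2 at 7.08 ± 0.319, Ramp1 at 6.89 ± 0.294, Adm at 3.71 ± 0.845 and Ramp3 at 0.243 ± 0.00602 (SD, n = 2). The first 3 did not differ beyond their spread. In AngII the order was Calcrl at 8.81 ± 0.490, Ramp2 at 7.51 ± 1.83, Adm at 3.73 ± 1.18, Ramp1 at 1.62 ± 0.122 and Ramp3 at 0.194 ± 0.163, so that Ramp1 stood below Adm. Per kilobase of the longest coding transcript Ramp2 was the most abundant, at 19.8 in CTRL, and Ramp1 at 8.95 and Calcrl at 8.44 came next.

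The other ligands and receptors of the family were mostly near or at the limit. Iapp and Adm2, which encode amylin and intermedin, and the calcitonin receptor gene Calcr were at 0 counts in every library. Calca, the gene of CGRP alpha, had 2 to 20 counts, and Calcb, the gene of CGRP beta, had 0 to 14, so none of the 4 other ligand genes could be tested. CGRP is made in the cell bodies of sensory neurons, which lie outside the aorta. Ackr3, which encodes a scavenger receptor for adrenomedullin and chemokines, stood at 69.0 and 56.4 CPM (CTRL), 70.5 and 73.1 CPM (AngII), 52.2 and 46.0 CPM (AngII+2W) and 36.7 and 34.9 CPM (AngII+3W). It was lower in AngII+3W than in AngII, by a log2 fold change of -1.004 (SE 0.137, edgeR FDR 0.0251), and the 2 AngII+3W libraries were the lowest of all 8.

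The wider pathway held 63 genes in 6 lists: other ligands, other receptors, enzymes that process or clear the peptides, the Gs to protein kinase A cascade, cyclic AMP phosphodiesterases and vasodilator effectors. Of these, 58 were tested. In AngII against CTRL, 1 was called higher and 2 lower, which is 5.17% of those tested and near the 5.10% of all genes, and the median log2 fold change was 0.01, against -0.01 for all genes. In AngII+3W against CTRL 1 was called, lower (1.72%, against 0.285% of all genes). In AngII+3W against AngII 1 was called, Ackr3 (1.72%, against 1.61% of all genes). None was called in the other comparisons by edgeR's quasi-likelihood test. DESeq2 called 4, 4 and 3 in AngII+2W against CTRL, AngII+2W against AngII and AngII+3W against AngII+2W. Over all genes DESeq2 called 373, 685 and 216 in these comparisons.

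Kcnmb1, the beta subunit of the calcium-activated potassium channel of smooth muscle, was the pathway gene called in both AngII and AngII+3W against CTRL. It stood at 66.7 and 51.8 CPM (CTRL), 13.98 and 16.3 CPM (AngII), 42.7 and 29.4 CPM (AngII+2W) and 13.7 and 19.8 CPM (AngII+3W). It fell by 1.97 on the log2 scale in AngII (SE 0.252, edgeR FDR 0.0108) and by 1.82 in AngII+3W (SE 0.250, FDR 0.0455). AngII and AngII+3W lay below both other groups, as for Ramp1.

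The calls among adenylyl cyclases, the enzymes that make cyclic AMP, went in opposite directions. Adcy5 fell from 460 and 365 CPM in CTRL to 145 and 159 CPM in AngII (log2 fold change -1.44, SE 0.301, edgeR FDR 0.0395). Adcy2 was far less abundant and rose from 1.90 and 1.32 CPM to 4.16 and 6.16 CPM (1.68, SE 0.364, FDR 0.0426). The other 22 genes of the Gs, adenylyl cyclase and protein kinase A list were not called. None of the 16 phosphodiesterases, which break down cyclic nucleotides, was called in any comparison. Calls among the 63 genes in AngII fell without CTRL replicate 1 or any 1 library of AngII or AngII+2W, and rose without either AngII+3W library. In AngII+3W against CTRL they were lost without CTRL replicate 1, AngII+3W replicate 1 or any 1 library of AngII or AngII+2W. The Ackr3 call, the only one in AngII+3W against AngII, was lost without AngII+3W replicate 1 or any 1 library of AngII or AngII+2W. In both comparisons calls rose without AngII+3W replicate 2. Calls over all genes fell and rose in the same fits.

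Other receptors that signal through Gs were followed with 19 tested genes. In AngII, Htr7, a serotonin receptor, rose from 0.292 and 0.659 CPM in CTRL to 2.16 and 2.23 CPM (log2 fold change 2.19, SE 0.451, edgeR FDR 0.0379). The list's calls were lost when any 1 library of CTRL, AngII or AngII+2W was left out, where calls over all genes fell too. The list's median log2 fold change was 0.36 in AngII, with 13 higher and 6 lower. Adm is known as a hypoxia-inducible gene, and none of 19 tested entries for 18 other hypoxia-inducible genes (Aldoa has 2 entries) was called in any of the 6 comparisons, with medians between -0.08 and 0.06.

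**Figure D4:**
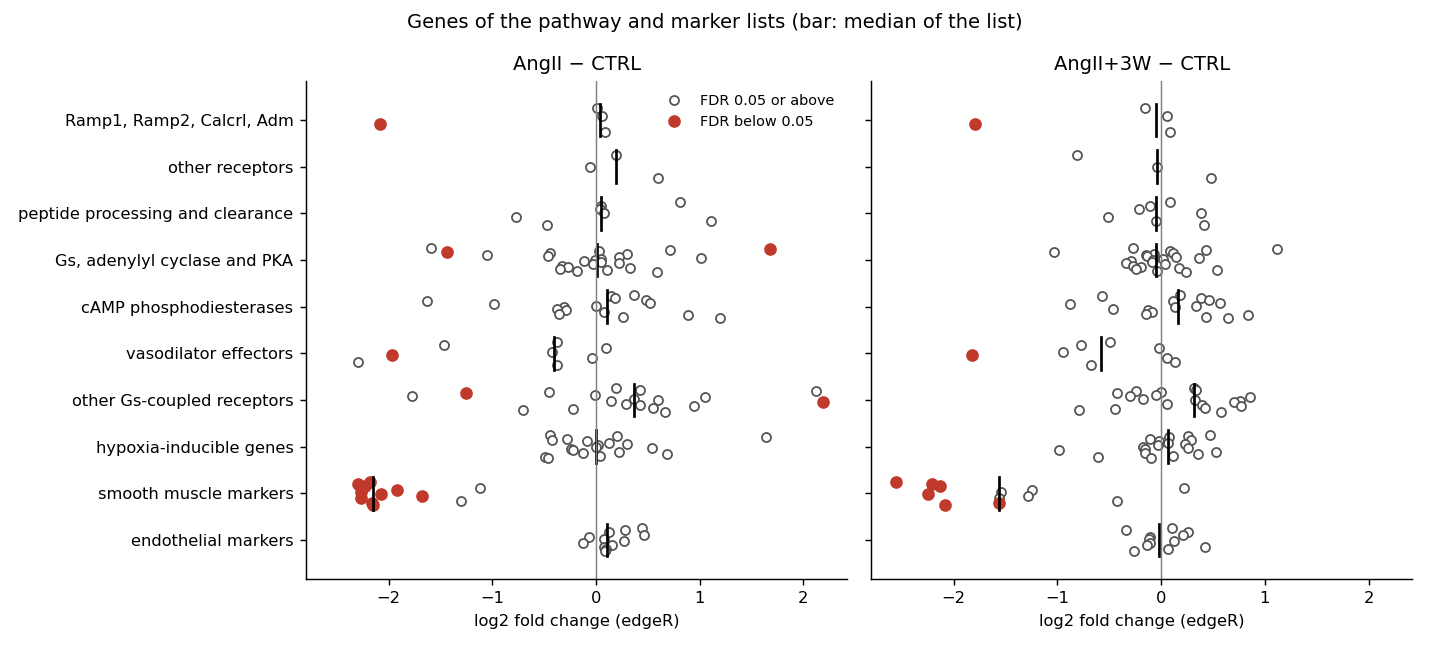
Log2 fold changes (horizontal axis, edgeR) of the tested genes of each list (rows) for AngII against CTRL on the left and AngII+3W against CTRL on the right, with filled points for an FDR below 0.05 and a bar at the list's median. Filled points are few outside the smooth muscle markers, where 10 of 12 genes in AngII and 6 of 12 in AngII+3W are called lower.

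Ramp1 moved with the markers of smooth muscle, and its level was set beside them. The 12 smooth muscle markers summed to 11881 and 9239 CPM (CTRL), 2261 and 2768 CPM (AngII), 5012 and 4591 CPM (AngII+2W) and 2464 and 4216 CPM (AngII+3W). Of the 12, 10 were called lower in AngII (median log2 fold change -2.15) and 6 in AngII+3W (median -1.56), where 2.20% and 0.268% of all genes tested were called lower. None was called in AngII+2W against AngII, where 11 of 12 were higher (median 0.93). Most or all of the 10 calls in AngII were lost without CTRL replicate 1 or either AngII library. All 6 calls in AngII+3W were lost without CTRL replicate 1, AngII+3W replicate 1 or any 1 library of AngII or AngII+2W. Such a fit leaves 1 library in a group, and calls over all genes fell in these fits too. Examples in AngII are Synpo2 (-2.16), Myl9 (-2.08), Actg2 (-2.30) and Tagln (-2.15), which are genes of the contractile apparatus. In bulk tissue, fewer smooth muscle cells and less RNA of these genes per cell cannot be told apart.

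Per 1000 CPM of these markers, Ramp1 stood at 1.80 and 2.18 CPM (CTRL), 2.05 and 1.87 CPM (AngII), 3.07 and 2.82 CPM (AngII+2W) and 2.31 and 1.49 CPM (AngII+3W). On this scale AngII lay within the range of CTRL, and AngII+2W lay above every other library. The endothelial markers, in contrast, summed to 1152 to 1584 CPM over all libraries, with none of 12 called in AngII or in AngII+3W (median log2 fold changes 0.11 and -0.02). Per 1000 CPM of endothelial markers, Ramp2 stood at 13.1 to 20.9 CPM and Calcrl at 19.7 to 47.7 CPM.

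**Figure D5:**
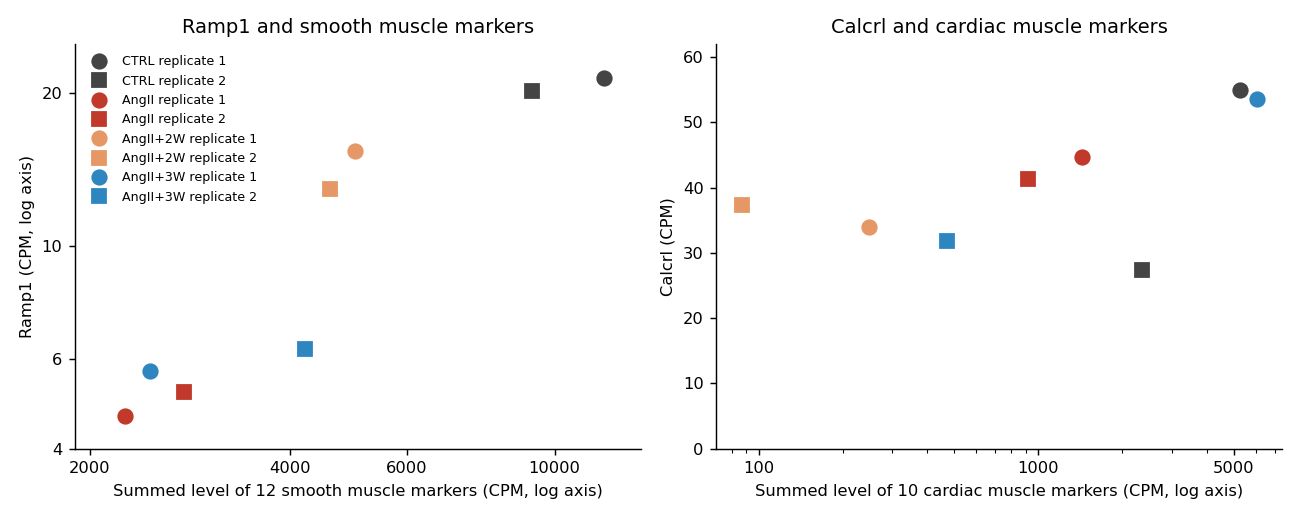
Left, Ramp1 level (CPM, log axis) against the summed level of 12 smooth muscle markers (CPM, log axis), and right, Calcrl level (CPM, from 0) against the summed level of 10 cardiac muscle markers (CPM, log axis), 1 point for each of the 8 libraries. Ramp1 is high where the smooth muscle sum is high, with AngII+2W above AngII+3W replicate 2 at a similar sum. The 2 highest Calcrl levels are in the 2 libraries with the most cardiac markers, and the lowest is in CTRL replicate 2, which has the next highest cardiac sum.

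Markers of other cells differed between the groups too. As for smooth muscle, a change in cell number and one in RNA per cell cannot be told apart. All 8 fibroblast markers were higher in AngII than in CTRL, 3 of them called where 2.90% of all genes tested were called higher, and their sum was 16435 and 26414 CPM in AngII against 4014 and 2570 CPM in CTRL. In AngII+2W the sum came to 7390 and 5376 CPM, and in AngII+3W to 2118 and 5273 CPM. The 3 called genes encode matrix proteins, and collagen transcripts made up most of the sum in AngII. Macrophage markers summed to 709 and 1177 CPM in AngII, against 364 and 271 CPM in CTRL, with 5 of 9 called higher. In AngII+3W they summed to 230 and 393 CPM. Lymphatic endothelial markers, of interest because adrenomedullin receptors serve lymph vessels, gave 3 of 7 called higher in AngII, Pdpn, Ccl21a and Mmrn1, of which Pdpn is also made by fibroblasts and Ccl21a has near copies. All calls of fibroblast, macrophage and lymphatic markers in AngII were lost without CTRL replicate 1 or 2 or AngII replicate 2. Fewer of them stayed without AngII replicate 1 or either AngII+2W library. Without either AngII+3W library there were more. Calls over all genes fell and rose in the same fits. Adipocyte markers summed to 7252 to 12316 CPM over the 8 libraries, with none of 8 called in any comparison.

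Cells of nerves, whose sensory fibres release CGRP, were followed with 9 neuron and Schwann cell markers. Their sum was 104 and 102 CPM in CTRL, and AngII was lowest with 70.2 and 59.8 CPM. The AngII+2W libraries held 95.4 and 119 CPM, and those of AngII+3W 134 and 139 CPM. In AngII+3W against AngII, the Schwann cell genes Mbp (log2 fold change 0.90, FDR 0.0251) and Sox10 (1.35, FDR 0.0413) were called higher by edgeR. The calls of this list were lost without AngII+3W replicate 1 or any 1 library of AngII or AngII+2W, where calls over all genes fell too. The part of all these cell types in the levels of the receptor genes was not tested.

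Over the 8 libraries, the genes with levels most like those of each member were found by Pearson's r of log2 CPM among 15158 genes with a mean of at least 1 CPM. For Ramp1 they were Napepld (r = 0.98), 1500009L16Rik (0.98) and Kcnmb1 (0.98). Napepld, which encodes a phospholipase that makes N-acylethanolamines, gave 41.2 and 39.1 CPM (CTRL), 21.4 and 22.3 CPM (AngII), 32.7 and 34.6 CPM (AngII+2W) and 24.3 and 26.3 CPM (AngII+3W), the same order of groups as Ramp1. For Ramp2 they were Bax, Tbk1 and Sec14l2 (0.95 to 0.97), for Calcrl Psme4, Mfsd14a and Psd3 (0.94 to 0.95) and for Adm Ocrl, Camk1 and Sphk1 (0.97 to 0.98). The libraries of a group share their treatment and all were compared on the same scaling, so these values describe the 8 libraries and were not tested.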

How the data were processed

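Aortic tissue gave 8 libraries in 4 groups, assigned from the labels. The authors depleted ribosomal RNA and quantified transcripts with Salmon in the ARMOR workflow, and tximeta brought the estimates to genes. The deposited table holds expected counts per gene as whole numbers, without normalization or filter. It has no transcript lengths, so no length offsets were used.

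Counts were fitted with edgeR 4.0.16 in R 4.3.3 (filterByExpr, TMM, the older form of the quasi-likelihood F test, 1 coefficient per group, 4 residual degrees of freedom), and two-sided p-values were adjusted by the Benjamini-Hochberg method over 17182 genes with a threshold of 0.05. SE is the absolute log2 fold change over the square root of F. Each library is a pool of 2 mice, so p-values measure the spread between pools. DESeq2 1.42.0 and limma 3.58.1 (voom) gave alternatives, as did other scalings, filters, a replicate block and leaving out each library. Lengths and positions came from GENCODE on GRCm38, and near-identical transcripts (at least 95% over 100 bases) from BLAST 2.17.0.

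The members and lists were chosen with earlier results of these data known. Named are the 5 members, of each list and comparison up to 4 genes past the threshold with the smallest p, and for each member the 3 genes with the highest Pearson r. Wilson intervals and floors cover counting error only. Replicates differed by more than sampling noise (chi-square per degree of freedom 13.0 to 91.0), so none was counted as a repeat. Some genes that the rule names are not reported here.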

Additional observations from a re-analysis of the deposited data

How the results depend on the processing

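Ramp1 kept its direction in all 6 comparisons under all 19 alternatives. Against CTRL, leaving out each library in turn gave log2 fold changes of -2.16 to -2.01 in AngII and -1.92 to -1.73 in AngII+3W. In both comparisons the call did not hold under every alternative. These values chose the family, so whether an alternative kept the call is a description and not a test. The AngII+3W call was lost with library totals alone (FDR 0.0503) and with only the 2 groups compared (0.208), where no member was called (0), and with the replicate block (0.0525, log2 fold change -1.79, 0 members called). The replicate numbers mark different mice, and the replicate differences of the groups correlated by -0.01 to 0.33 over 15159 genes, so the block is given here only; Ramp1 in AngII+2W against AngII kept an FDR of 0.0468 with the replicate block. Leaving out a library gave 1.39 to 1.65 for Ramp1 in AngII+2W against AngII and -1.39 to -1.13 in AngII+3W against AngII+2W, where DESeq2 (-1.25) and the likelihood ratio test (-1.24) passed the threshold. The number of members called was 0 to 1 over the left-out libraries in each of AngII against CTRL, AngII+3W against CTRL, AngII+2W against AngII and AngII+3W against AngII+2W, and 1 in the last with DESeq2 and the likelihood ratio test.

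The other members, none past the threshold, changed sign in 21 of 342 fits, 20 of them with a library left out and 1 with the replicate block (Adm in AngII against CTRL, -0.035). With a library left out, the values against CTRL ran for AngII from -0.19 to 0.32 (Ramp2), -0.36 to 0.65 (Calcrl) and -0.35 to 0.30 (Adm), and for AngII+3W from -0.17 to 0.25, -0.38 to 0.63 and -0.97 to 0.33. The other changes of sign were in Calcrl in AngII+2W against CTRL (-0.63 to 0.39), in Ramp2 in AngII+2W against AngII (-0.45 to 0.064), and in Ramp2, Calcrl and Adm in AngII+3W against AngII (-0.26 to 0.26, -0.43 to 0.27 and -0.98 to 0.33) and in AngII+3W against AngII+2W (-0.035 to 0.38, -0.16 to 0.54 and -0.50 to 0.80). No alternative gave Ramp2, Calcrl or Adm an FDR below 0.05.

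The number of the 63 pathway genes called depended on the fit. For AngII against CTRL it was 6 with every gene of at least 1 count, 5 with at least 10 counts in every library, 7 with DESeq2, 8 with the likelihood ratio test, 5 with only the 2 groups and 0 to 8 with a library left out. For AngII+2W against CTRL it was 4, 7 and 0 to 4 with DESeq2, the likelihood ratio test and a library left out. For AngII+3W against CTRL it was 0 with library totals, the replicate block or only the 2 groups, 2 with either filter, 6 with DESeq2 and with the likelihood ratio test, and 0 to 4 with a library left out. For AngII+2W against AngII it was 1 with every gene, 4 with DESeq2, 1 with the likelihood ratio test, 5 with only the 2 groups and 0 to 1 with a library left out. For AngII+3W against AngII it was 3 with DESeq2, 0 with only the 2 groups and 0 to 6 with a library left out, and for AngII+3W against AngII+2W it was 3, 4 and 0 to 6. The cause was not tested. With 2 libraries a group, changes of Calcrl and Adm below about 2-fold, and any change of Ramp3, could not be resolved at this depth.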
